A study of Mus musculus with 9 samples.

Results

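Interferon-stimulated genes, the genes that cells switch on when interferon reaches them, were measured in cultured mouse lung cells with and without the transcription factor Nrf2. The members were 37 named genes, chosen by symbol and not by their signal here. Each was read from the probe set that carries its symbol alone in the platform annotation, and from the brightest such probe set where there were several. Of the 37 genes, 35 had such a probe set, among 18193 genes on the array, and 34 passed the signal filter described below, among 11620 genes. Isg15, a small protein that is attached to other proteins, had a probe set that also carries another gene's symbol and Ifi44 had none, so neither was measured here. Mx2, a dynamin-like antiviral GTPase, was measured but lay below the filter.

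The labels name the cells lung type II cells, which in the alveolus secrete surfactant, of female ICR10 mice aged 2 months. They were freed from the lung with Dispase and passed over IgG-coated plates, which take out macrophages. Fibroblasts were then left to stick to dishes, and the rest were cultured for 5 days with keratinocyte growth factor on a coat of fibronectin and collagen. The 3 groups of 3 arrays were cells of Nrf2+/+ (wild-type) mice, cells of Nrf2-/- (knockout) mice, and cells of Nrf2-/- mice supplemented with GSH, as glutathione, a small antioxidant peptide, is usually written. How much GSH was given, and when, is not stated (the treatment field reads no treatment on every array), and no wild-type cells with GSH were among the arrays. The labels count 1 tissue per array without saying that each array had its own animal. What the p-values weigh is thus the array-to-array spread alone, and that may be technical. A second number in the sample titles divides each group into 2 arrays of set 2 and 1 array of set 3, and what that number stands for is not stated.

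Interferons are secreted proteins that warn cells of infection. Type I interferons bind the receptor chains IFNAR1 and IFNAR2, the kinases JAK1 and TYK2 pass the signal on, and a complex that holds STAT2 and IRF9 binds the interferon-stimulated response element (ISRE) in front of target genes. Interferon gamma acts through IFNGR1 and IFNGR2 and a different element, the gamma-activated site (GAS), and many genes answer to both. The products sense foreign RNA or DNA, block viral replication, present antigen and, through USP18 and SOCS proteins, turn the signal down again.

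Promoters of members that moved are shown first, because the ISRE is the element through which type I interferon is known to act on such genes. RefSeq's promoter table (build GRCm38.p6, 250 bases before to 50 bases after each gene's start) held 32 promoters of 28 members. The ISRE core (GAAA, any 2 bases, GAAA), searched on both strands with overlapping matches allowed, was found in 16 of the 28 members and in 50% of their promoters, against 3.44% of all 32851 promoters in the table. The 28 include Isg15, which held the core, and Ifi44, which did not, though neither gene's expression was measured here. The GAS core TTCNNNGAA, whose reverse complement is itself, was in 25% of the members' promoters against 8.30% of all. The core of the antioxidant response element that Nrf2 binds, TGACNNNGC on either strand, was in 21.9% against 12.4%. One ISRE match, in Bst2, overlapped a GAS match. A match is a run of letters and not a measured binding site. No promoter was matched for Dhx58, Mx1, Mx2, Oas2, Usp18, Parp9, Parp14, Zbp1 and Rtp4. The 250 bases just before the gene start of 5 members are printed 5′ to 3′ on the gene's strand with the ISRE core matches in capitals, where overlapping matches run together. They are Ifit1 (chr19:34640639-34640888, plus strand), Gbp3 (chr3:142559794-142560043, plus strand), Oas3 (chr5:120777660-120777909, minus strand), Bst2 (chr8:71537473-71537722, minus strand) and Cxcl10 (chr5:92348890-92349139, minus strand).
Ifit1: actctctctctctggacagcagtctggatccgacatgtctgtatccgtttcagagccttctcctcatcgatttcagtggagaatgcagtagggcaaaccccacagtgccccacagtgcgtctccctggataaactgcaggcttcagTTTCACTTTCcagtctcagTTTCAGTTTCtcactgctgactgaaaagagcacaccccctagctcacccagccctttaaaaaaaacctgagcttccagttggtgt
Gbp3: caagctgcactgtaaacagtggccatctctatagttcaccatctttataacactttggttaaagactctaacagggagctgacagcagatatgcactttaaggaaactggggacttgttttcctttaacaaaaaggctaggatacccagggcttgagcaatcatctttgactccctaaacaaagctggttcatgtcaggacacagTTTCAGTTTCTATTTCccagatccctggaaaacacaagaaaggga
Oas3: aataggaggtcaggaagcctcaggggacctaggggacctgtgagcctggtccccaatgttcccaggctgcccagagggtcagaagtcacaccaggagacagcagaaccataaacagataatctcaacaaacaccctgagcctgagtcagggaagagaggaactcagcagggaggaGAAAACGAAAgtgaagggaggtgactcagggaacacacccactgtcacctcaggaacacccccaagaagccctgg
Bst2: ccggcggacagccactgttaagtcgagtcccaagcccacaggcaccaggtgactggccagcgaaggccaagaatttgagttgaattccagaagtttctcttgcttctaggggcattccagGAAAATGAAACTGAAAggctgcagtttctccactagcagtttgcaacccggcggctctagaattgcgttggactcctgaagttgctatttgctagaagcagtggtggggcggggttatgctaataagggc
Cxcl10: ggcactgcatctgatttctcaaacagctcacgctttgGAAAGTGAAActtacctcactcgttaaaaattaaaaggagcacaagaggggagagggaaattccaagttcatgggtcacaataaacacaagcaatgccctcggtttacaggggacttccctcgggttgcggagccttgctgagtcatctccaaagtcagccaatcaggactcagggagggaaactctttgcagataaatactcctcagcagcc
Ifit1, Gbp3 and Bst2 each had 2 matches, and those of Gbp3 and Bst2 overlapped. The Ifit1 matches lay 104 to 76 bases before the gene start, the Gbp3 matches 45 to 30, the Oas3 match 75 to 66, the Bst2 matches 130 to 115 and the Cxcl10 match 213 to 204. These 5 genes were chosen among members that moved and hold the ISRE core. They therefore cannot show whether the core goes with the rise in knockout. All 5 were higher in knockout than in wild-type cells. With GSH, Oas3 alone among them rose while the other 4 fell.

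Array signals are in arbitrary units that the authors had scaled so that the 2% trimmed mean was 500.0 on every array, and the filter kept the 22519 of 45037 probe sets whose mean log2 signal was at or above the median. The brightest probe set of Nfe2l2, the gene that encodes Nrf2, read 3879 to 4173 in wild type, but 28.7 to 77.4 in knockout cells and 33.3 to 46.2 in those given GSH. The labels call every animal female. Xist, which is made from the inactive X chromosome of female cells, read 132 to 188 in wild type and 2444 to 4777 in the knockout groups, while the Y-linked gene Eif2s3y read 701 to 936 in wild type and 1.5 to 24.4 in the knockout groups. In any comparison with wild type, the genotype therefore cannot be told apart from whatever goes with these sex-linked signals. The labelled cell type had weak marks: of 9 measured type II markers 6 passed the filter, and the surfactant protein gene Sftpc read 25.5 to 145, at or below the level of the bacterial control probe sets (43.4 to 82.9 by array) on all 3 wild-type arrays.

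Without Nrf2, nearly all the interferon-stimulated genes were higher. Of the 34 members above the filter, 32 were higher in knockout than in wild type and 0 were lower by limma (adjusted p under 0.05). That is 94.1% of them, against 14.6% of all 22519 probe sets called higher and 29.1% called in either direction. In such bulk samples, fewer or more cells of a type and less or more RNA per cell cannot be told apart. At an unadjusted p under 0.05 limma counted 33 higher and 0 lower, and without the signal filter, with Mx2 included, it called 33 of 35 higher. The median difference over the 34 was 1.22 on the log2 scale (0.00 over all probe sets), and 23 members, 67.6%, differed at least 2-fold, where 2.55% of all probe sets were called and at least 2-fold higher. All 34 were higher in knockout within set 2 (median 1.20) and between the single arrays of set 3 (median 1.30). The groups did not overlap for 32 of the 34, or 94.1% against 30.2% of all probe sets. Irf1 and Oasl1 were the members not called. Mx1 passed the filter only through the knockout groups, since its wild-type signal was below the filter's geometric mean of 115.9. It is included in these counts, but its difference from wild type is given below as a description only.

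GSH did not move these genes as a block. Between knockout cells with and without GSH, 13 members were lower with GSH (38.2%, against 17.0% of all probe sets), 5 were higher (14.7%, against 18.4%) and 16 were not called. The median difference was -0.15, against 0.04 over all probe sets. The 13 lower members were Zbp1, Irf9, Usp18, Ifit1, Ifit3, Oasl2, Bst2, Gbp2, Gbp3, Gbp7, Igtp, Irgm1 and Cxcl10. The 5 higher members were Oas1a, Oas3, Rsad2, Cmpk2 and Parp14. All 18 called members had the same direction within both sets. The calls came from those same arrays, so this agreement was largely fixed by the choice of called members and is no replication. The groups did not overlap for 21 of 34 (61.8%, against 33.6% of all probe sets). Against wild type, knockout cells with GSH still had 29 of 34 members higher (85.3%, against 22.5% of all probe sets) and 0 lower by limma (0 also at an unadjusted p under 0.05, against 22.3% called lower), with a median of 0.94 (0.02 over all probe sets). Of the 32 members that were higher in knockout, 28 were also higher than wild type with GSH, and Ifit3, Gbp2, Irgm1 and Cxcl10 were not called. Arrays did not overlap between these groups for 28 of 34 (82.4%, against 43.4%). These comparisons share the knockout or the wild-type arrays, so their counts are not independent of each other.

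**Figure D1:**
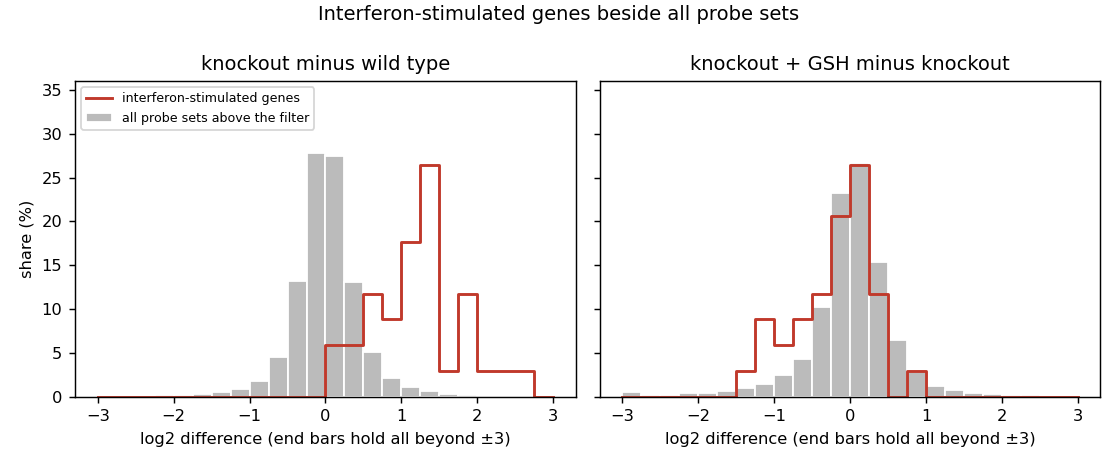
Share of features (%, y axis) in bins of log2 difference (x axis) for all 22519 probe sets above the filter (grey bars) and the 34 interferon-stimulated genes (red outline). The members sit to the right of the bulk in knockout minus wild type, with a median of 1.22, and around a median of -0.15 in knockout with GSH minus knockout.

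**Figure D2:**
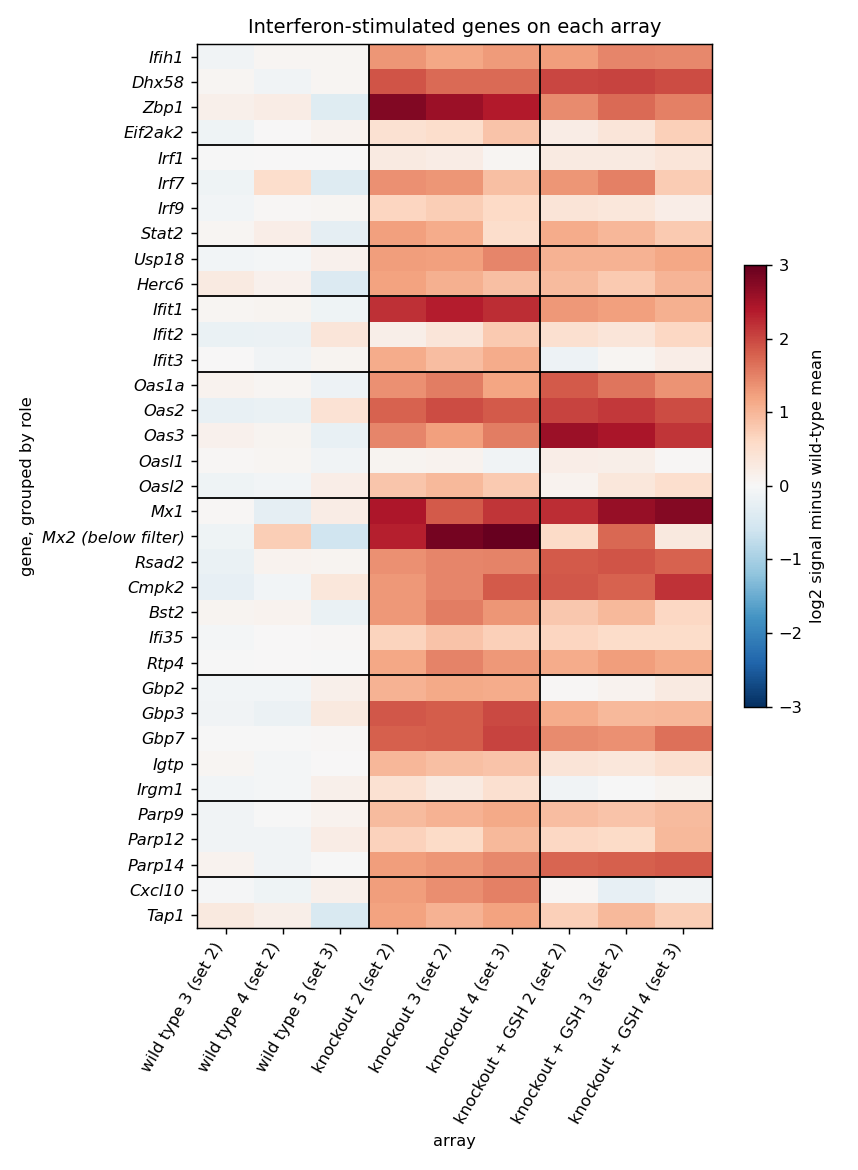
Log2 signal of 35 interferon-stimulated genes (rows, grouped by role) on each of the 9 arrays (columns), relative to the gene's wild-type mean. The 3 knockout arrays are red in nearly every row, and with GSH the Ifit1, Ifit3, Gbp2 and Cxcl10 rows turn paler while the Oas3 and Parp14 rows turn darker.

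Sensors of foreign nucleic acid were all higher without Nrf2, 4 of 4, where 14.6% of all probe sets were called higher. Zbp1, which recognises Z-form nucleic acid and can start cell death, read 382, 402 and 271 in wild type, 2383, 2048 and 1813 in knockout and 929.5, 1125 and 983 with GSH. The 3 groups did not overlap on any array, with knockout highest and wild type lowest. Zbp1 was 5.97-fold higher in knockout than in wild type (log2 difference 2.58 ± 0.12 SE, limma adjusted p = 4.8e-08), the largest difference among the 34. With GSH it was 2.05-fold lower than in knockout (-1.04 ± 0.12, adjusted p = 3.1e-05). The other 3 sensors were not called between GSH and knockout. Ifih1, which encodes the sensor MDA5 of long double-stranded RNA, had means of 786 ± 50.9 (SD, n = 3) in wild type, 1879 ± 116 in knockout cells and 2063 ± 154 in those given GSH. Dhx58, whose product LGP2 works with MDA5, had 148 ± 10.1, 500.3 ± 38.6 and 591 ± 15.8. Eif2ak2, which encodes the kinase PKR that halts translation, had the smallest difference of this role (0.62 in knockout against wild type, adjusted p = 3.3e-04), with -0.19 ± 0.09 between GSH and knockout.

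Transcription factors of the pathway were higher in knockout in 3 of 4 cases, against 14.6% of all probe sets. Irf7, which amplifies type I interferon production, read 796, 1248 and 669 in wild type, 2249, 2169 and 1623 in knockout and 2171, 2481 and 1475 with GSH. Set 3 gave the lowest Irf7 array in each group, and every knockout array of either kind was above every wild-type array. The log2 difference was 1.19 ± 0.14 in knockout against wild type (adjusted p = 5.9e-05) and 0.00 ± 0.14 between GSH and knockout. Irf9, a DNA-binding partner of STAT2, read 901, 970.2 and 987 in wild type, 1500.0, 1589 and 1448 in knockout and 1239.6, 1201 and 1089 with GSH. It was the one factor that fell with GSH (-0.36 ± 0.08, adjusted p = 0.0034). Stat2 was higher in both knockout groups (means 459 ± 74.4, 907 ± 219 and 893 ± 106). Irf1, a factor that answers mainly to interferon gamma, had means of 1288 ± 13.0, 1469 ± 119 and 1589.7 ± 63.7. Its arrays did not overlap between knockout and wild type, but limma did not call it (0.19 ± 0.08, adjusted p = 0.092), except without knockout replicate 4 (adjusted p = 0.030). With GSH it was higher than in wild type (0.30, adjusted p = 0.0072). That call was lost with a replicate block in place of the set (adjusted p = 0.094), which joins wild-type and GSH arrays of different sets.

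Of the ISG15 system, in which ISG15 is coupled to proteins by HERC6 in the mouse and removed by USP18, both measured members were higher in knockout. Over all probe sets 14.6% were. Usp18, which also blocks the type I interferon receptor, read 2012, 2041 and 2316 in wild type, 5025, 5009.6 and 5817 in knockout and 4340.3, 4352 and 4761 with GSH. Wild-type arrays were far below all others, and each GSH array was below all 3 knockout arrays. The difference was 1.31 ± 0.05 between knockout and wild type (adjusted p = 2.6e-08) and -0.23 ± 0.05 between GSH and knockout (adjusted p = 0.0057). The latter call was lost without the set term (adjusted p = 0.13), with a replicate block in place of the set (0.061) and in set 2 alone (0.058). Herc6 had means of 494 ± 112, 1018 ± 105 and 915 ± 75.7, and its GSH and knockout arrays overlapped.

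The IFIT family, whose products bind foreign RNA and block its translation, was higher in knockout in 3 of 3 members, and 2 of them fell with GSH. Of all probe sets, 14.6% were called higher in knockout and 17.0% lower with GSH. Ifit1 read 1427, 1450.5 and 1254 in wild type, 6252, 7002 and 6392 in knockout and 3396, 3225 and 2899.8 with GSH. The 3 groups were apart on every array. Ifit1 differed by 2.25 ± 0.07 between knockout and wild type (4.76-fold, adjusted p = 2.4e-09), by -1.05 ± 0.07 between GSH and knockout (adjusted p = 3.1e-07) and by 1.20 ± 0.07 between GSH and wild type. Ifit3 read 957, 879 and 1001 in wild type, 2041, 1791 and 2038 in knockout and 849.9, 976 and 1089 with GSH. Its GSH arrays overlapped the wild-type arrays (0.03 ± 0.09, adjusted p = 0.78) and lay below every knockout array (-1.01 ± 0.09, adjusted p = 3.3e-06). Ifit3 has a near-identical copy in the mouse genome, so its signal may hold both. Ifit2 read 396, 402 and 580.1 in wild type, 509, 585 and 775 in knockout and 626, 586 and 699.5 with GSH. The set 3 wild-type array stood above the lowest knockout array. The difference of 0.44 ± 0.11 (adjusted p = 0.010) missed the threshold without the set term (adjusted p = 0.20) and without knockout replicate 4 (adjusted p = 0.053). GSH left Ifit2 uncalled (0.05 ± 0.11).

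The OAS family makes or resembles the enzymes that turn double-stranded RNA into 2′-5′ oligoadenylate, the activator of RNase L. In knockout 4 of 5 members were higher, and with GSH 2 rose further while 1 fell. Over all probe sets, 14.6% were called higher in knockout, and 18.4% higher and 17.0% lower with GSH. Oas2 read 162, 164 and 255 in wild type, 641, 736 and 683 in knockout and 775, 823 and 737 with GSH. Each GSH array lay above each knockout array, by a margin that limma did not call (0.18 ± 0.15, adjusted p = 0.40). Between knockout and wild type Oas2 differed by 1.86 ± 0.15 (adjusted p = 5.0e-06), with 1.42 in set 3. Oas3, the largest of these enzymes, read 202, 196 and 158 in wild type, 507, 432 and 537 in knockout and 1092, 1003 and 813 with GSH. Here the order was wild type, knockout, knockout with GSH, with no overlap. Oas3 rose by 0.97 ± 0.14 with GSH (adjusted p = 2.0e-04), the largest rise of any member, to 5.22-fold above wild type. Oas1a rose as well (0.23 ± 0.08, adjusted p = 0.036), but its GSH and knockout arrays overlapped. The call was lost without the set term (adjusted p = 0.32) and with the replicate block (adjusted p = 0.14). It was also lost without wild type replicate 3 or 4 (adjusted p = 0.056 and 0.052), knockout replicate 2 or 4 (0.12 and 0.080) or GSH replicate 2 (0.13). Oas1a has close relatives in a gene cluster and its probe set may read more than 1 of them.

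Oasl2, an OAS-like protein of the mouse, read 1415, 1469.7 and 1788 in wild type, 2750.4, 3029 and 2676 in knockout and 1669.5, 1967 and 2203 with GSH. It fell with GSH (-0.54 ± 0.10, adjusted p = 0.0013), so that its GSH arrays overlapped the wild-type arrays. Its remaining difference from wild type (0.32 ± 0.10, adjusted p = 0.023) was not called without wild type replicate 3 or 4 (adjusted p = 0.089 and 0.069) or GSH replicate 3 or 4 (0.080 and 0.11). Oasl1, which restrains Irf7 translation, had means of 718 ± 47.5, 737 ± 58.5 and 784 ± 47.1. Its arrays overlapped in all 3 comparisons, with differences of 0.04 ± 0.08, 0.09 ± 0.08 and 0.13 ± 0.08 (adjusted p = 0.76, 0.39 and 0.20).

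**Figure D3:**
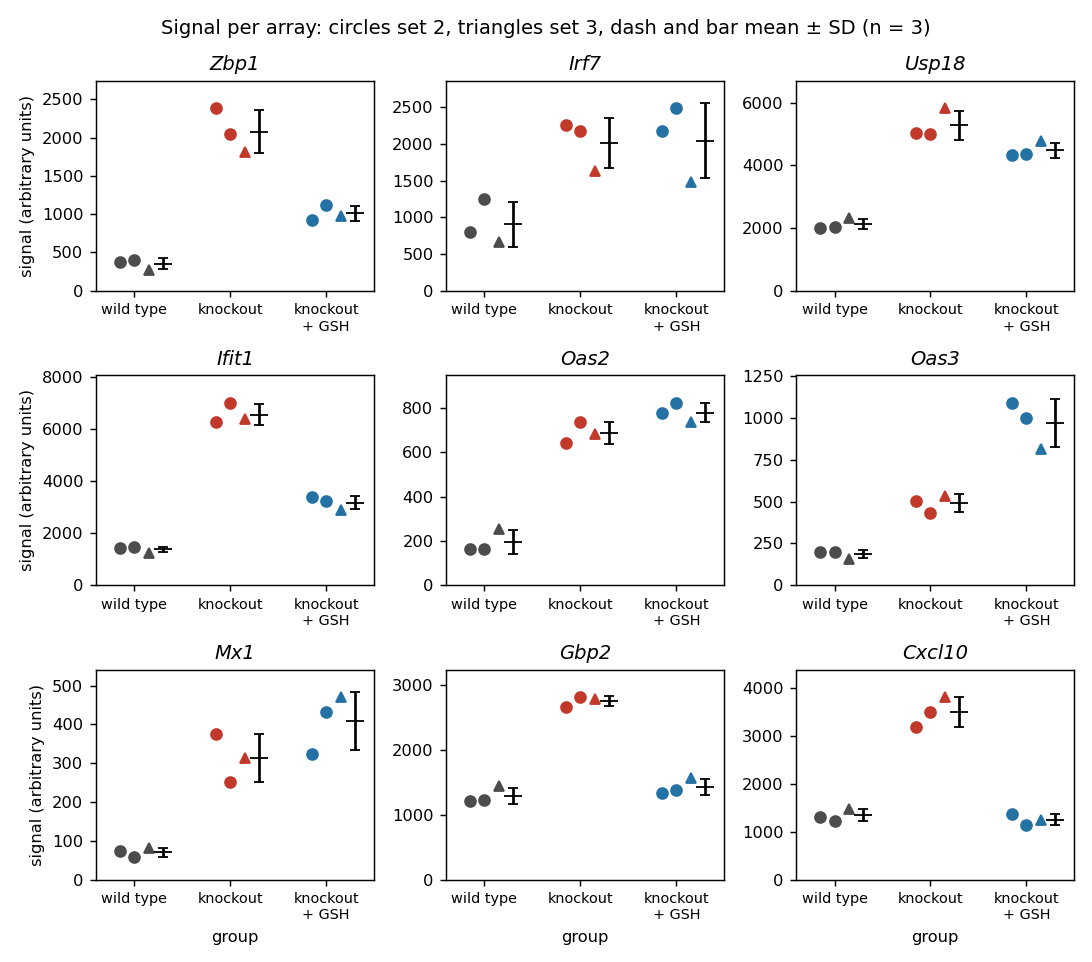
Signal (arbitrary units, y axis from 0) on each array for 9 interferon-stimulated genes in wild-type, knockout and knockout cells with GSH; circles are set 2, triangles set 3, and the dash and bar give mean ± SD (n = 3). Ifit1, Gbp2 and Cxcl10 are highest in knockout without GSH, Oas3 is highest with GSH, and Irf7 stands at like levels in both knockout groups.

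Other antiviral effectors were higher in knockout in 6 of 6 members above the filter, against 14.6% of all probe sets. Mx1, a GTPase that blocks influenza viruses, read 72.5, 58.5 and 81.7 in wild type, 375, 252 and 313 in knockout and 324, 433 and 470.2 with GSH. All 9 arrays were above the control level, and every array of the knockout groups was above every wild-type array. The difference was 2.14 ± 0.20 between knockout and wild type, a description only, since Mx1 passed the filter through the knockout groups. Between GSH and knockout it was 0.39 ± 0.20 (adjusted p = 0.16). Mx2, below the filter, read 45.4, 82.4 and 33.0 in wild type, 251, 366 and 420.5 in knockout and 74.3, 165 and 61.4 with GSH. Its signal exceeded the control level on 1 array of wild type, on all 3 of knockout and on 2 with GSH. Each knockout array stood above every other array. In a fit of all probe sets without the filter, Mx2 differed by 2.76 ± 0.41 between knockout and wild type (adjusted p = 9.2e-04) and by -1.89 ± 0.41 between GSH and knockout (adjusted p = 0.0073).

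Bst2 (tetherin), which holds budding virus at the cell surface, read 1609, 1644 and 1331 in wild type, 3724, 4438 and 3819.9 in knockout and 2678, 2969.8 and 2327 with GSH. Its 3 groups were apart, with GSH in between. Bst2 differed by 1.39 ± 0.08 in knockout against wild type (adjusted p = 3.2e-07) and by -0.59 ± 0.08 with GSH (adjusted p = 1.6e-04). Rsad2 (viperin) and Cmpk2, neighbouring genes whose products make and feed an altered nucleotide that stops viral RNA synthesis, moved the other way with GSH. Rsad2 had means of 993 ± 114, 2678 ± 120.4 and 3521 ± 146, a rise of 0.40 with GSH (adjusted p = 0.0041). Cmpk2 had means of 282 ± 61.8, 816 ± 158 and 1074 ± 158 (0.40, adjusted p = 0.0066), with overlapping GSH and knockout arrays, and its call was lost without the set term (adjusted p = 0.20). Rtp4 (2509 ± 21.1, 6266 ± 685 and 5647 ± 304) and Ifi35 (3437 ± 108, 5781 ± 423 and 5178 ± 201) were higher in knockout and not called between GSH and knockout.

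The interferon-inducible GTPases, which attack the membranes around intracellular pathogens, formed the role in which every member rose without Nrf2 and every member fell with GSH, 5 of 5 each time. Among all probe sets 14.6% were called higher without Nrf2 and 17.0% lower with GSH. Gbp3 read 384, 363 and 501 in wild type, 1498, 1439.8 and 1619 in knockout and 888, 815 and 816 with GSH. GSH arrays lay between the other groups without overlap. Gbp3 differed by 1.88 ± 0.10 between knockout and wild type (adjusted p = 2.0e-07) and by -0.85 ± 0.10 with GSH (adjusted p = 6.3e-05). Gbp2 read 1220.4, 1221 and 1439.8 in wild type, 2659.8, 2814 and 2793 in knockout and 1329, 1386 and 1563 with GSH. With GSH it overlapped wild type (0.14 ± 0.07, adjusted p = 0.12) and was 1.94-fold below knockout (adjusted p = 8.9e-07). Gbp7 had means of 378 ± 6.11, 1390.5 ± 133 and 1057 ± 107, and the groups did not overlap. The immunity-related GTPase genes Igtp (950.2 ± 36.7, 1787 ± 89.3 and 1250.0 ± 63.7) and Irgm1 (2145 ± 195, 2819 ± 212 and 2127 ± 128) had smaller differences. Irgm1 with GSH stood 0.01 ± 0.07 below wild type on the log2 scale (adjusted p = 0.92). Whether falls were commoner in this role than in others was not tested.

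PARP family members, ADP-ribosyltransferases and related proteins induced by interferon, were higher in knockout in 3 of 3 cases, against 14.6% of all probe sets. Parp14 read 918, 795 and 845 in wild type, 2032, 2141 and 2297 in knockout and 2849, 2941 and 3034 with GSH. The groups were apart in the order wild type, knockout, knockout with GSH, as for Oas3. Parp14 differed by 1.34 ± 0.07 in knockout against wild type (adjusted p = 1.9e-07) and rose by 0.45 ± 0.07 with GSH (adjusted p = 5.9e-04). Parp9 (1374 ± 94.6, 2829.5 ± 202 and 2569.6 ± 72.5) and Parp12 (2172 ± 291, 3631 ± 519 and 3587 ± 568) were not called between GSH and knockout.

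Cxcl10, the chemokine that draws activated T cells, had the largest fall with GSH of any member above the filter. It read 1315, 1232 and 1477 in wild type, 3179, 3496 and 3804 in knockout and 1371, 1132 and 1249.6 with GSH. The GSH and wild-type arrays overlapped, and all 3 knockout arrays stood above both. Cxcl10 differed by 1.38 ± 0.09 between knockout and wild type (adjusted p = 5.3e-07), by -1.48 ± 0.09 between GSH and knockout (adjusted p = 1.6e-07) and by -0.10 ± 0.09 between GSH and wild type (adjusted p = 0.38). Tap1, which carries peptides to MHC class I, read 608, 557 and 363 in wild type, 1142, 1023 and 1140.0 in knockout and 809, 976 and 832 with GSH. The 3 groups did not overlap, and the step down with GSH of -0.34 ± 0.15 was not called (adjusted p = 0.098), but was called without wild type replicate 5 (adjusted p = 0.024) and with only the 6 arrays compared (adjusted p = 0.034).

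**Figure D4:**
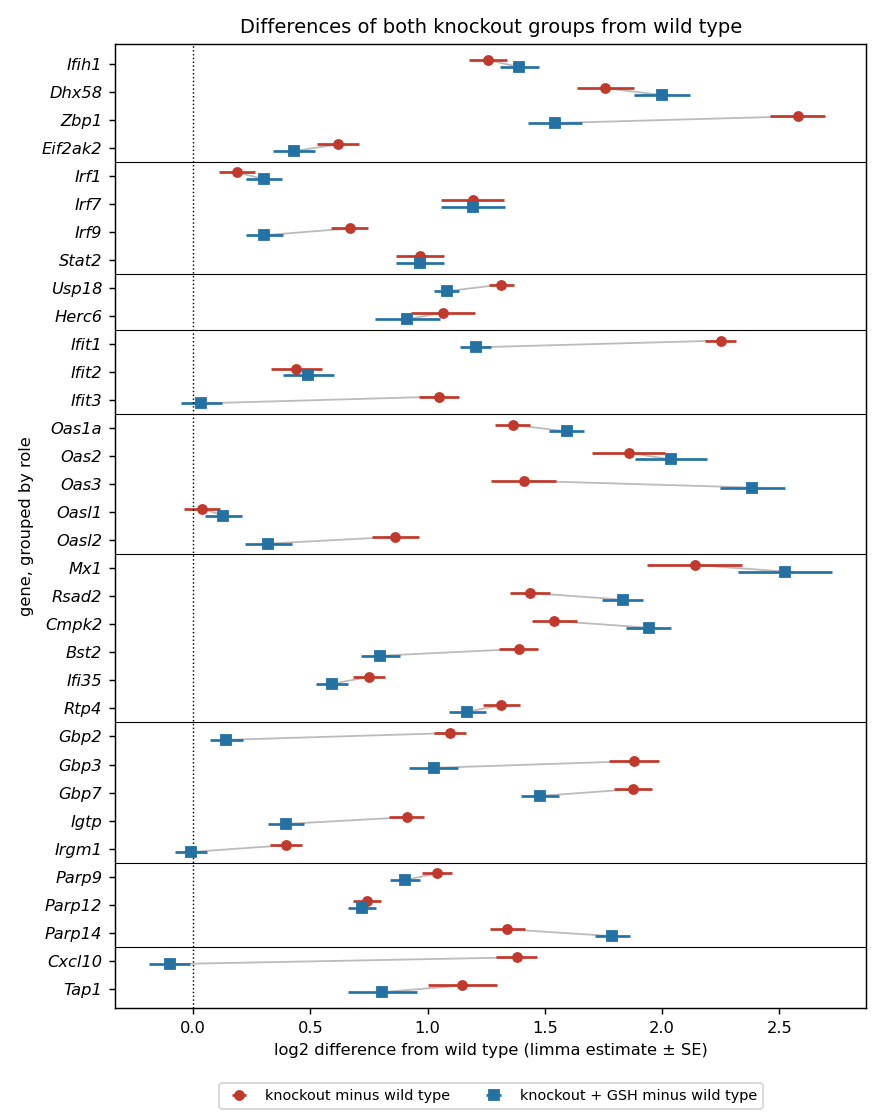
Log2 difference from wild type (x axis, limma estimate ± SE) of knockout (red circles) and knockout with GSH (blue squares) for the 34 members above the filter, grouped by role. All 34 red circles lie to the right of 0, while the blue squares of Ifit3, Gbp2, Irgm1 and Cxcl10 lie near 0 and that of Oas3 lies at 2.38.

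The promoters shown above may be read beside these values. Of the 13 members that fell with GSH, 11 had a promoter in the table and 9 of these held the ISRE core. Of the 5 that rose, 4 had a promoter and 3 held it, namely Oas1a, Oas3 and Rsad2. Of the 16 not called, 11 had a promoter and 3 held it. Among the promoters printed, those of Ifit1 and Gbp3, which fell, and Oas3, which rose, had their matches within 104 bases before the gene start. Bst2 (130 to 115) and Cxcl10 (213 to 204), which also fell, had theirs farther off. The GAS core was in 3 of 11, 1 of 4 and 4 of 11 promoters in the same order. These are counts in a window of 300 bases, with no test.

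A group of 10 members had more than 1 probe set above the filter, 26 in all, and 25 of these were higher in knockout than in wild type, with Ifi35 holding the exception. Over all probe sets the share called higher was 14.6%. The dimmest Dhx58 probe set (wild-type mean 64.7) and the second Gbp7 probe set (113) are included in that count. Both passed the filter only through the knockout groups, since their wild-type signal was below its geometric mean of 115.9. Their difference from wild type is thus a description only. For Ifi35, whose product partners with NMI, the brightest probe set read 5178 ± 201 with GSH and was higher than wild type (0.59). A second one read 1260.4 ± 75.2 with GSH and was lower there than in knockout (-0.67, adjusted p = 4.8e-05) and than in wild type (-0.28, adjusted p = 0.014). The remaining probe set was called in none of the comparisons. A second Gbp7 probe set was not called between GSH and knockout (0.04 ± 0.26, adjusted p = 0.93), and it varied from 102 to 405 among the knockout arrays. The second Rsad2 and Cmpk2 probe sets were not called between GSH and knockout (0.18 and 0.07), while the dimmest Rsad2 probe set was (0.45, adjusted p = 0.0069). Both Zbp1 probe sets and both Gbp2 probe sets fell with GSH.

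Other genes of the interferon pathway were read from a list of 56 symbols, of which 43 were measured and 37 passed the filter. Of these, 25 were higher and 1 lower in knockout than in wild type, with a median of 0.45, where 14.6% of all probe sets were called higher and 14.6% lower. The ligand genes were dim. None of the 6 measured ligands (Ifnb1, Ifng, Ifna1, Ifna2, Ifna4 and Ifna5) passed the filter, and Ifng and Ifna4 were at or below the control level on every array of all 3 groups. Ifnb1 (means 74.3, 99.2 and 77.6) exceeded that level on 3 wild-type, 3 knockout and 2 GSH arrays. Ifna1 (means 106, 61.3 and 92.1) exceeded it on 3, 2 and 2, and Ifna2 and Ifna5 on at most 1 array of a group. The summed signal of the 6 was 232 to 302 in wild type, 203 to 249.5 in knockout and 262 to 304 with GSH.

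Both type I receptor chains rose without Nrf2 and fell with GSH. Ifnar2 read 1784, 1898 and 1732 in wild type, 3384, 3245 and 2858 in knockout and 2289, 2162 and 2143 with GSH, and the 3 groups were apart. It differed by 0.81 ± 0.07 (adjusted p = 4.0e-06) and by -0.52 ± 0.07 (adjusted p = 7.4e-05). Ifnar1 differed by 0.56 and -0.33 (adjusted p = 9.9e-04 and 0.018). The interferon gamma receptor genes Ifngr1 and Ifngr2 were not called between knockout and wild type (-0.13 ± 0.12 and 0.16 ± 0.08) and rose with GSH (0.46 and 0.48, adjusted p = 0.0088 and 4.7e-04). Ifnlr1, the receptor of interferon lambda, read 189 ± 40.0 in knockout and 264 ± 19.8 with GSH (0.50, adjusted p = 0.045), and Il10rb, its shared chain, was higher in knockout (0.35).

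Among kinases and factors 7 of 9 were higher in knockout and 0 lower, among sensing and relay genes 7 of 12 and 0, and among inhibitors 8 of 10 and 1, against the same 14.6% each way. Nlrc5, the activator of MHC class I genes, read 108, 130.2 and 72.8 in wild type, 301, 247 and 332 in knockout and 415, 436 and 486 with GSH. The groups stood in that order without overlap (1.53 ± 0.21 and 0.61 ± 0.21), and GSH was called higher than knockout (adjusted p = 0.046). Nlrc5 and Socs1 passed the filter only through the knockout groups, so their difference from wild type is given as a description. Both are included in the counts of genes higher in knockout. Trim30a, an interferon-induced inhibitor of innate signalling, was 4.05-fold higher in knockout (594 ± 56.1 against 2414 ± 346, adjusted p = 6.5e-09) and rose by another 0.26 with GSH (adjusted p = 0.013). The receptor inhibitor Socs3 was higher in knockout (0.83, adjusted p = 2.5e-05). Socs1, another, differed by 0.95 with overlapping arrays, and neither was called between GSH and knockout (-0.11 ± 0.18 for Socs1 and -0.12 ± 0.08 for Socs3). Between GSH and knockout 14 of the 37 genes were higher with GSH and 3 lower, namely Ifnar1, Ifnar2 and Stat3, where 18.4% of all probe sets were called higher and 17.0% lower.

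**Figure D5:**
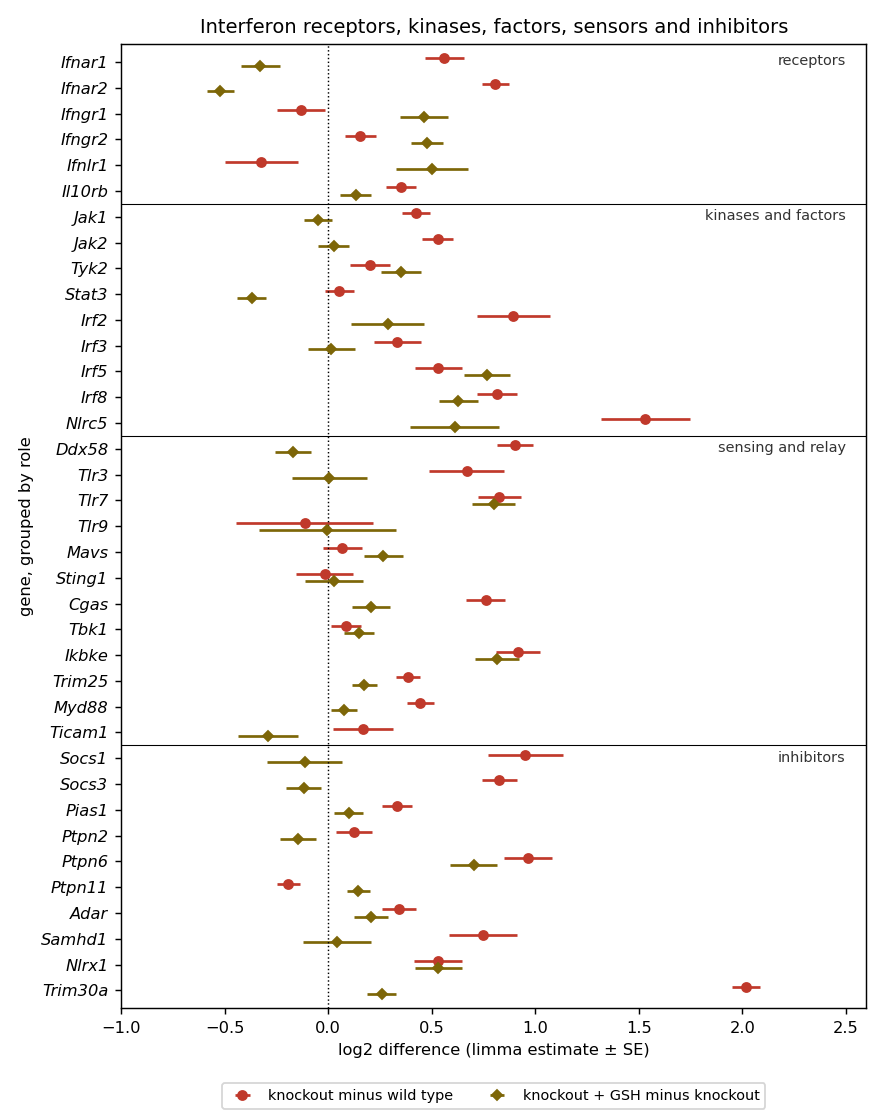
Log2 differences (x axis, limma estimate ± SE) of 37 other genes of the interferon pathway, grouped by role, in knockout minus wild type (red circles) and knockout with GSH minus knockout (brown diamonds). Ifnar1 and Ifnar2 lie right of 0 for the first and left of 0 for the second, and Trim30a has the largest difference from wild type.

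Markers of other cell types moved across the same groups. The counts below stand beside 14.6% of all probe sets called higher and 14.6% lower in knockout than in wild type. With GSH, 18.4% of all were called higher and 17.0% lower than in knockout. Macrophage markers, of which 18 of 18 passed the filter, had a summed signal of 61619 to 64163 in wild type, 101107 to 121690.1 in knockout and 130244 to 155566 with GSH. Of these markers 16 were higher and 2 lower in knockout than in wild type, and 10 higher and 2 lower with GSH than in knockout. The macrophage gene Adgre1 read 3893 to 4975 in wild type, 9181 to 10952 in knockout and 13630.1 to 13946 with GSH. The 2 macrophage markers lower in knockout were Siglecf and Itgax, and both were higher again with GSH. Siglecf read 390.5 to 586 in wild type, 123 to 146 in knockout and 406 to 659 with GSH. Itgax read 1921 to 2238, 821 to 1024 and 3203 to 3544. Fibroblast markers (13 of 13 above the filter) summed to 116769 to 128094 in wild type, 139942 to 185652 in knockout and 81791 to 95241 with GSH. Of the 13, 10 were higher and 1 lower in knockout than in wild type, and 11 were lower and 0 higher with GSH. Of 7 type I markers above the filter, 5 were lower in knockout and 3 higher with GSH. Of 6 endothelial markers, 2 were lower in knockout, and 1 was higher and 1 lower with GSH. Of 2 neutrophil markers, 1 was higher in knockout and 1 higher with GSH. Epithelial markers summed to 50927 to 51617, 14497 to 15423 and 69310.1 to 75499.9, all 7 being lower in knockout than wild type and all 7 higher with GSH. T, B and NK cell markers had sums of 525 to 908 over 11 genes, 2 of which passed the filter, with Cd3d, Cd3g and Nkg7 at or below the control level on every array. Plasmacytoid dendritic cell markers, counted without the members Bst2 and Irf7, summed to 1459 to 1489.5, 1504 to 1971 and 1093 to 1346 over 5 genes. The part of these cell types in the differences of the interferon-stimulated genes was not tested, and all 9 are bulk samples.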

How the data were processed

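The 9 arrays, 3 a group, were of the Affymetrix Mouse 430 2.0 type, as the design text says. The authors deposited linear probe set intensity values that share a 2% trimmed mean of 500.0, so they had been scaled. The summarising software is not named: not given in the sources used here. Of 45101 probe sets, 64 controls were left out. Intensities were taken to log2 with no further normalisation, with 2 values at 0 set to 0.1. The dimmer part of the probe sets, those under the median of the mean log2 intensity, was dropped. GEO's annotation of the platform gave 34945 probe sets 1 gene symbol, 932 more than 1 and 9160 no symbol.

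One limma model (version 3.58.1, R 4.3.3) held all 9 arrays and terms for group and set. Variances were moderated along an intensity trend, with 5 residual degrees of freedom and a prior of 6.08, and p was adjusted by Benjamini-Hochberg over the 22519 probe sets kept in each of 3 comparisons. The fit was tested on simulated data. Calls are at adjusted p under 0.05, and an error after ± is the SD for signals and the SE for log2 differences. The control level is the 95th percentile of 27 bacterial control probe sets on each array. Fold changes are 2 to the power of the log2 difference. The number of arrays limits the precision.

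The members, the pathway and marker lists, the motifs and the rule for named genes (in each role the member with the largest difference in either of the first 2 comparisons, and those going against their role, with values on every array) were chosen with earlier results of these data known. Ifit3 and Tap1, Mx2 and the sex-linked genes were added after their values were seen. Knockout arrays with and without GSH share the replicate numbers 2, 3 and 4 in the titles. Same-numbered arrays deviated together from their groups (correlations of 0.32, 0.29 and 0.67), but differently numbered arrays of set 2 did so too (0.24 and 0.39). Within set 2, same-numbered arrays thus agreed no more than differently numbered ones. Set 3 holds a single array of each group, so there the number cannot be told apart from the set. Arrays of different sets deviated in opposite directions (-0.37 to -0.52). Deviations were taken from each group's own mean, which favours such opposite signs, so these values are no separate evidence. The printed calls come from the model without pairs, and the replicate number entered as a block in an alternative. That block joins wild type replicate 4 of set 2 with knockout replicate 4 of set 3 (correlation -0.49). It leaves wild type replicate 5 alone, so for comparisons with wild type it mixes the sets.

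Alternatives were quantile normalisation, other filters, an offset of 16, no set term, a replicate block, fewer arrays in the fit, set 2 alone, no trend, a second probe set per gene, each array left out, and the fold rule of the design text.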

Additional observations from a re-analysis of the deposited data

How the results depend on the processing

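No called difference between knockout and wild type changed direction in any member under the alternatives run. The members higher in knockout numbered 29 to 33 (32 without each array in turn), and 0 were lower in each. Changes were counted once per member and alternative, the fold rule aside, so 1 member can count several times. Knockout against wild type gained 1 call (Irf1) and lost 2 (both Ifit2). GSH against knockout gained 6 (Ifi35, Rtp4 and Tap1) and lost 17, all of Oas1a, Usp18, Cmpk2 and Rsad2 and most of them of Oas1a. GSH against wild type lost 10, all of Eif2ak2, Irf1, Irf9, Ifit2 and Oasl2. Each of the 2 GSH comparisons also had 1 change of sign. The fold rule, run on counts alone, left 29 members higher in knockout than in wild type.

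Probe sets called between knockout and wild type numbered 6560, against 2774 without the set term, 3253 with the replicate block and 2063 by the fold rule of the design text (4500 to 6825 with an array left out). Between GSH and knockout they numbered 7964, against 4574 without the set term and 3091 by the fold rule (6659 to 7847 with an array left out). Between GSH and wild type they numbered 10074, against 6181 without the set term, 6586 with the replicate block and 4219 by the fold rule (8184 to 10452). Members higher with GSH than in knockout were 5, against 3 without the set term, 3 by the second probe set and 1 by the fold rule (4 to 5 with an array left out). Members lower were 13, against 6 by the fold rule (13 to 15). By the second probe set 1 member, Ifi35, was lower with GSH than in wild type.

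The median for knockout against wild type, 1.22, was 1.26 without the filter, 1.17 with the 70th percentile filter and 1.16 by the second probe set (1.19 to 1.30 with an array left out). That for GSH against wild type, 0.94, was 0.91 with the 70th percentile filter, 0.90 with the replicate block and 0.87 by the second probe set (0.91 to 1.02). That for GSH against knockout, -0.15, was -0.19 to -0.11 with an array left out. Called values that changed sign came from second probe sets, Gbp7 between GSH and knockout (0.038) and Ifi35 between GSH and wild type (-0.28). The replicate block ended the calls of Usp18 and Oas1a between GSH and knockout, and of Irf1 and Irf9 between GSH and wild type (adjusted p = 0.094 and 0.076), and no other member's call. Against wild type that block mixes the sets. The causes were not tested. Signals near the control level limit Mx1 and Mx2.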
